A study of Mus musculus with 24 samples.

Results

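The data described here are the 4 H3K27ac libraries of a Wdr82 knockdown series in mouse macrophages, out of 24 chromatin immunoprecipitation sequencing (ChIP-seq) libraries in all. They were chosen by antibody, and each is a list of called peaks. The cells were primary macrophages grown from the bone marrow of FVB/Hsd mice and used on day 7 of differentiation. All cells had been infected with a retrovirus and selected with puromycin. The knockdown cells carried 1 hairpin against Wdr82 (sh1137, called shWdr82 here) and the control cells carried the empty LMP vector, so the control expressed no hairpin. Cells of each kind were untreated or received 10 ng/ml of lipopolysaccharide (LPS), a component of the outer membrane of bacteria to which macrophages respond, for 4 h. The other antibodies of the series were H3K4me3, with the same vectors and times, and H3K4me1, H3K36me3, RNA polymerase II in all its forms (total Pol II) and its serine 2-phosphorylated, elongating form (Ser2P), whose control was a scrambled hairpin and whose LPS time in the sample titles is 45 min. The degree of knockdown was not measured in these lists, and the macrophage identity of the cells could not be checked against marker genes, since no gene annotation of the mm9 build was at hand.

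H3K27ac, acetylation of lysine 27 of histone H3, is found at active promoters and active enhancers. H3K4me3 marks promoters, H3K4me1 marks enhancers and the flanks of promoters, and H3K36me3 is left over gene bodies by elongating polymerase. WDR82 is a subunit of the SET1 complexes, which methylate H3 lysine 4, and of a phosphatase complex with PNUTS that acts in transcription termination. The title of the series concerns early termination of transcription at regulatory elements. The comparison made here is whether acetylated regions were present, as wide and as connected when Wdr82 was depleted.

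The empty vector lists held 32486 peaks untreated and 28986 after LPS, and the shWdr82 lists held 31677 and 28462. Between 40.8% and 42.2% of the peaks of a list overlapped an H3K4me3 peak of any of the 4 H3K4me3 libraries. These are called H3K4me3-overlapping, or promoters. Between 53.1% and 54.9% lay at least 2500 bp from every such peak and are called distal. With 1 library per group there was no spread between replicates, so differences were described without tests or p-values. Read depth is unknown. The 95% intervals below cover counting error over regions only, and neighbouring regions are not independent.

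A property of the lists changed sides between treatments, as the vector differences in presence, width and joining did. The peak score, the authors' own value, ran from 50 to a ceiling near 3100. The share of peaks at or above the ceiling was 15.9% in empty vector and 17.8% in shWdr82 cells untreated, and 14.6% and 12.2% after LPS. The list with the larger share was thus shWdr82 in untreated cells and empty vector after LPS. Its part in the results was not tested. The lists also have stretches without peaks. In 12 stretches the empty vector LPS list held no peak although each of the other 3 lists covered at least 10000 bp there, and 53 peaks of the shWdr82 LPS list lay in them. The corresponding counts were 3 stretches for empty vector untreated, 1 for shWdr82 untreated and 4 for shWdr82 LPS.

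The knockdown list covered more DNA than the control list in untreated cells and less after LPS. H3K27ac peaks covered 98.4 Mb in empty vector and 105.9 Mb in shWdr82 untreated cells, a difference of 7.59%. After LPS they covered 114.8 Mb and 103.5 Mb, a difference of -9.84%. LPS was accompanied by 16.7% more covered DNA in empty vector cells and by a change of -2.20% in shWdr82 cells. The median peak was 2229 bp wide in empty vector and 2418 bp in shWdr82 untreated cells, and 2748 bp and 2573 bp after LPS. Numbers of peaks did not follow the covered length, since both LPS lists had fewer peaks than both untreated lists.

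Most acetylated regions were held by both vectors, and promoters far more often than distal regions. The peaks of both vectors were merged where they shared at least 1 bp. This gave 33460 regions in untreated cells, of which 81.9% were held by both lists. ShWdr82 alone held 3373 of them (10.1%) and empty vector alone held 2678 (8%). After LPS there were 30331 regions and 78.8% were held by both. Here shWdr82 alone held 2538 (8.37%) and empty vector alone held 3900 (12.9%). The vector with more regions of its own was therefore not the same under both treatments.

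At promoters the lists differed little. Of 13534 H3K4me3-overlapping regions in untreated cells, 466 (3.44%) were held by shWdr82 alone and 365 (2.70%) by empty vector alone. The difference was 0.746 percentage points (95% interval 0.329 to 1.16), and it was above 0 on 14 of 20 chromosomes. After LPS, of 12029 such regions, 406 (3.38%) were held by shWdr82 alone and 562 (4.67%) by empty vector alone. The difference was -1.30 points (-1.80 to -0.790) and was above 0 on 2 of 20 chromosomes. Both vectors held 93.9% of acetylated promoters untreated and 92.0% after LPS.

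Distal regions differed more. Of 18393 distal regions in untreated cells, 2719 (14.8%) were held by shWdr82 alone and 2091 (11.4%) by empty vector alone. The difference was 3.41 points (2.68 to 4.15) and was above 0 on 19 of 20 chromosomes. Of 17105 distal regions after LPS, 2006 (11.7%) were held by shWdr82 alone and 3104 (18.1%) by empty vector alone. The difference was -6.42 points (-7.23 to -5.61), above 0 on 1 of 20 chromosomes. Both treatments therefore had a vector-specific distal fraction, with the excess on opposite sides. These directions were kept with equal numbers of peaks and with a score of at least 100, and turned with equal covered length. With equal numbers of peaks the differences were 1.59 points at promoters and 6.40 at distal regions untreated, and -0.759 and -4.21 after LPS. With lists cut to equal covered length, which removes the lowest-scoring peaks of the longer list alone, they turned to -6.20 and -18.9 untreated and to 9.15 and 23.9 after LPS. Taking many peaks from 1 list alone moves the difference toward the other list. This setting therefore cannot decide whether the directions depended on the length of the lists.

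**Figure D1:**
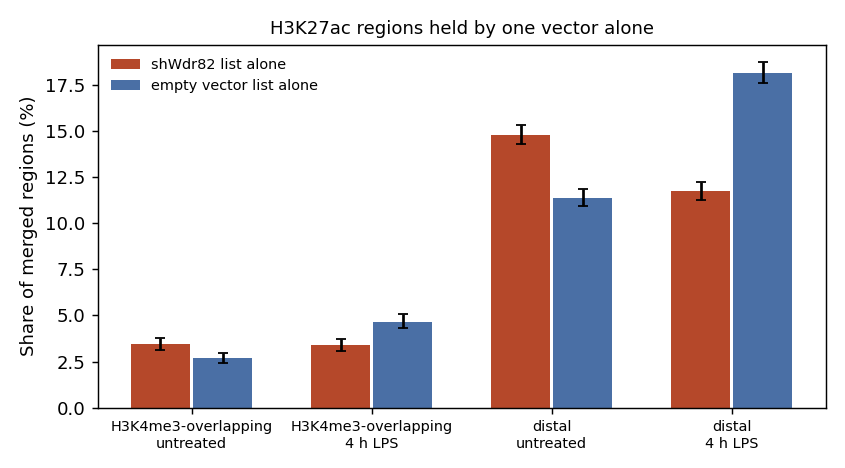
Share of merged H3K27ac regions (vertical axis, %) held by the shWdr82 list alone (red) or the empty vector list alone (blue), at H3K4me3-overlapping and distal regions, untreated and after 4 h of LPS. Bars are single libraries with exact 95% binomial intervals. The shWdr82 bar is the taller one untreated (14.8% against 11.4% at distal regions) and the shorter one after LPS (11.7% against 18.1%).

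The regions held by 1 vector were mostly weak peaks. The median score of the unshared peaks was 73.8 in empty vector and 79.9 in shWdr82 untreated cells, and 76.3 and 72.2 after LPS. The shared peaks of the same lists had median scores from 440.4 to 750.9. Some unshared peaks were stronger. A score of 200 or more was held by 113 of 2678 in empty vector and 254 of 3373 in shWdr82 untreated cells. After LPS 196 of 3900 and 116 of 2538 had one, and the highest score was 3100 in both lists. Of the empty vector untreated peaks with a score from 50 to 100, 64.4% were overlapped in shWdr82 cells, and of those from 500 to 1000, 99.9% were. At every score from 50 to 500 the share was lower for distal peaks than for promoter peaks. In the lowest class, 51.1% of distal and 64.9% of promoter peaks of shWdr82 untreated cells were overlapped in empty vector cells. After LPS, 47.3% of distal and 61.8% of promoter peaks of empty vector cells in that class were overlapped in shWdr82 cells. Between 55.8% and 62.5% of the unshared peaks lay within 10 kb of a peak of the other vector. A region just under the calling threshold is missing from a list without being free of acetylation.

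**Figure D2:**
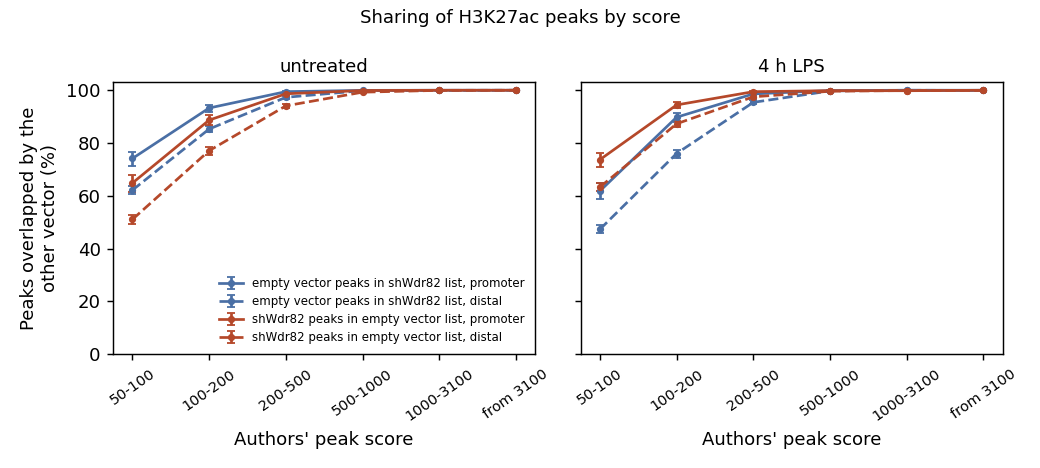
Share of H3K27ac peaks overlapped by the other vector's list (vertical axis, %) by class of the authors' peak score (horizontal axis), untreated (left) and after 4 h of LPS (right). Blue, empty vector peaks. Red, shWdr82 peaks. Solid lines, H3K4me3-overlapping. Dashed lines, distal. Bars are exact 95% binomial intervals. The lines meet near 100% from a score of 500, and the lowest points are 51.1% (shWdr82 distal, untreated) and 47.3% (empty vector distal, LPS).

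Peaks acquired with LPS were shared unequally. The empty vector LPS list had 7705 peaks with no peak in either untreated list, and 70.4% (69.4 to 71.5) of them were overlapped in shWdr82 LPS cells. The shWdr82 LPS list had 7021 such peaks, and 83.2% (82.3 to 84.1) of them were overlapped in empty vector LPS cells. The difference was -12.8 points (-14.1 to -11.4), and it turned to 23.5 points with lists of equal covered length. Among LPS peaks that did overlap an untreated peak, the shares were close, 92.4% for empty vector and 93.7% for shWdr82. The untreated lists showed the mirror image. Of 8716 empty vector untreated peaks with no peak in either LPS list 80.7% were overlapped in shWdr82 cells, and of 8890 such shWdr82 peaks 74.0% were overlapped in empty vector cells.

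By score, the unequal sharing of LPS-acquired peaks lay in the weak ones. Between scores 50 and 100, 40.6% of the empty vector peaks and 63.8% of the shWdr82 peaks were overlapped by the other list. Between 100 and 200 the shares were 70.7% and 87.8%. From a score of 500 they were 99.9% and 99.7%. The strongest acetylated regions that appeared with LPS in empty vector cells were thus called in shWdr82 cells in nearly all cases.

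Over the merged regions of all 4 lists, few followed the vector in both treatments. Of 39645 regions, 17429 were held by all 4 lists. Both shWdr82 lists and neither other list held 153 (0.386%), and both empty vector lists and neither other list held 181 (0.457%). Of the 153, 111 were distal and 31 overlapped H3K4me3, and of the 181, 128 were distal and 38 overlapped H3K4me3. Of all 39645 regions, 24219 were distal. Far more regions were held by 1 list alone. ShWdr82 untreated alone held 2310, of which 1918 were distal, and empty vector LPS alone held 2278, of which 2045 were distal. The 2 crossed patterns, which follow neither vector nor treatment, counted 39 and 78 regions.

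The 5 regions with the highest scores among those held by both shWdr82 lists alone were all modest peaks. The region at chr1:155554805-155557719 scored 264.4 untreated and 292.6 after LPS in shWdr82 cells and lay 5489 bp from the nearest empty vector peak. The region at chr16:44999234-45001719 scored 374.7 and 256.0 and lay 1723 bp from the nearest empty vector peak. The others were chr2:157933392-157936813, chr13:110019191-110023161 and chr2:126339901-126342470. Only chr13:110019191-110023161 of the 5 overlapped an H3K4me3 peak, and it did so in all 4 H3K4me3 lists. All 5 held an H3K4me1 peak in all 4 H3K4me1 lists, so a mark of enhancers and promoter flanks was called there whichever hairpin the cells carried.

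Those held by both empty vector lists alone included regions without H3K4me1 in knockdown cells. The region at chr13:98252778-98257716 scored 189.5 untreated and 216.3 after LPS in empty vector cells and lay 15389 bp from the nearest shWdr82 peak. There, and at chr2:146384891-146387843 and chr13:55752046-55755021, H3K4me1 was called in both scrambled lists and neither shWdr82 list. Of all 128 distal regions held by both empty vector lists alone, 9 (7.03%) had this pattern, beside 412 (1.7%) of all 24219 distal regions. Of the 1342 distal regions held by empty vector untreated alone, 50 (3.73%) had it. The region at chr15:98380861-98384191 had H3K4me1 in 3 of 4 lists and lacked it in shWdr82 after LPS. The remaining one, chr6:87931522-87933529, overlapped H3K4me3 and H3K4me1 in all lists, and H3K36me3 was called there in the scrambled lists and not in the shWdr82 lists. The H3K4me1 and H3K36me3 lists come from separate libraries with another control vector.

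Peaks that matched 1 to 1 between vectors were slightly wider in shWdr82 cells untreated and slightly narrower after LPS. At 11428 promoter pairs in untreated cells, the median width was 2362.5 bp in empty vector and 2433 bp in shWdr82. The median log2 ratio of the widths was 0.036 (0.033 to 0.039), a factor of 1.03. At 12260 distal pairs the medians were 2330 bp and 2569 bp, and the median log2 ratio was 0.091 (0.085 to 0.097), a factor of 1.07. After LPS, 9885 promoter pairs had medians of 2835 bp and 2599 bp and a median log2 ratio of -0.083 (-0.087 to -0.078). For 10690 distal pairs they were 2974.5 bp and 2646 bp, with a log2 ratio of -0.094 (-0.10 to -0.087). Over all pairs, the median was above 0 on 20 of 20 chromosomes untreated and on 0 of 20 after LPS.

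Large changes of width were few. Of 24725 pairs in untreated cells, 1882 (7.61%) were over 1.5-fold wider in shWdr82 and 418 (1.69%) over 1.5-fold narrower. Of 21341 pairs after LPS, 497 (2.33%) were wider and 1926 (9.02%) narrower. Distal pairs held most of them, with 1363 of the 1882 wider pairs untreated and 1329 of the 1926 narrower pairs after LPS. As a ratio, the widening in untreated cells was larger at small peaks. At distal pairs under 1 kb the median log2 ratio was 0.16, and at those of 10 kb or more it was 0.022. It was also larger at distal peaks without a peak in the other treatment (0.13) than at those with one (0.074). After LPS, distal peaks without and with a peak in the other treatment had -0.13 and -0.085. By size, distal pairs after LPS did not follow the untreated order. Their median was 0.018 (-0.027 to 0.071) under 1 kb, -0.12 at 3 to 5 kb and -0.043 at 10 kb or more.

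**Figure D3:**
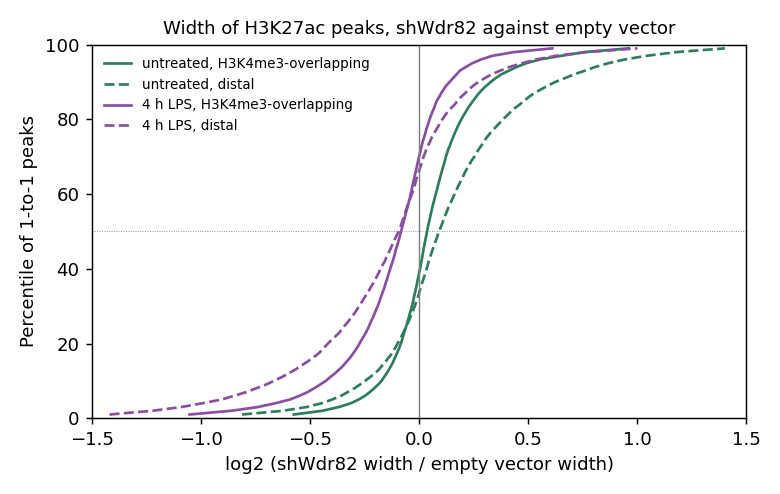
Distribution of the log2 ratio of H3K27ac peak widths, shWdr82 over empty vector (horizontal axis), as percentile of 1-to-1 peak pairs (vertical axis). Green, untreated. Purple, 4 h of LPS. Solid lines, H3K4me3-overlapping. Dashed lines, distal. The green curves cross the 50th percentile at 0.036 and 0.091, to the right of 0, and the purple ones at -0.083 and -0.094, to its left.

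Few regions had a large width difference of the same direction in both treatments. At 13474 regions matched 1 to 1 in untreated cells and after LPS, 590 were over 1.5-fold wider in shWdr82 untreated and 193 after LPS, and 24 (0.178%) were wider in both. Over 1.5-fold narrower were 138 untreated and 848 after LPS, and 24 (0.178%) in both. Pearson's r between the log2 ratios of the 2 treatments was 0.12 over these regions, as a description, since regions share their libraries. Another 47 regions were wider untreated and narrower after LPS, and 4 were the reverse.

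The most pronounced of the regions wider in both treatments were distal. At chr15:34022854-34027627 the peak measured 1522 bp in empty vector and 4351 bp in shWdr82 untreated cells, and 1818 bp and 4378 bp after LPS. This is 2.86-fold and 2.41-fold wider in shWdr82. At chr14:34112172-34119676 the widths were 3502 bp and 7505 bp untreated, and 1798 bp and 3944 bp after LPS. This region overlaps chr14:34092439-34114683, a stretch in which the empty vector untreated list held no peak. Within chr14:34112172-34119676, Ser2P Pol II was called in both shWdr82 lists and neither scrambled list. At chr10:26614633-26617314 the widths were 1049 bp and 2460 bp untreated, and 971 bp and 1878 bp after LPS. All 3 held H3K4me1 in all 4 lists.

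The most pronounced of the narrower regions included a promoter. At chr17:35067122-35073212, which overlapped H3K4me3 in all 4 lists, the peak measured 5165 bp in empty vector and 2569 bp in shWdr82 untreated cells. After LPS it measured 5761 bp and 1830 bp. At chr11:11784464-11791289, a distal region, the widths were 5141 bp and 2215 bp untreated, and 6826 bp and 3587 bp after LPS. At chr7:13874473-13879685, also distal, they were 4351 bp and 2340 bp, and 5213 bp and 2745 bp. All 3 were picked for being narrower in both shWdr82 lists, so their direction follows from the choice.

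Neighbouring peaks were joined more often in shWdr82 cells untreated and in empty vector cells after LPS. In untreated cells 2187 shWdr82 peaks (6.9%) spanned 2 or more empty vector peaks, and 863 empty vector peaks (2.66%) spanned 2 or more shWdr82 peaks. After LPS the counts were 1127 (3.96%) and 1829 (6.31%). The log2 ratio of the counts was 1.34 untreated (1.23 to 1.46) and -0.70 after LPS (-0.81 to -0.59). With gaps of at least 500 bp alone it was 2.05 and -2.72. The gaps that were closed were mostly short. Their median was 102 bp in shWdr82 and 74 bp in empty vector untreated cells, and 78 bp and 197 bp after LPS. In both treatments shWdr82 joined the peaks of 241 of 39645 regions and empty vector those of 159, and 341 were joined by shWdr82 untreated and by empty vector after LPS. The reverse, empty vector untreated and shWdr82 after LPS, held for 100.

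Promoters and distal peaks were joined at similar rates. In untreated shWdr82 cells 7.35% of promoter peaks and 6.56% of distal peaks joined empty vector peaks. After LPS, 6.88% of promoter and 5.90% of distal peaks of empty vector cells joined shWdr82 peaks. The widest joined peak was 70091 bp, in shWdr82 untreated, and 83342 bp in empty vector LPS.

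The largest region joined in shWdr82 in both treatments was a distal domain at chr8:129343027-129413117. It was 1 peak of 70091 bp in shWdr82 and 4 peaks in empty vector untreated cells, and 1 peak of 63876 bp and 2 peaks after LPS. The acetylated length itself differed little, 68384 bp in empty vector and 70091 bp in shWdr82 untreated, and 61556 bp and 63876 bp after LPS. In this domain H3K36me3 covered 28732 bp untreated and 33148 bp after LPS in shWdr82 cells, and 0 bp in both scrambled lists. Ser2P Pol II covered 18717 bp and 3115 bp in shWdr82 cells and 0 bp in both scrambled lists. Total Pol II covered 31830 bp in scrambled and 34012 bp in shWdr82 untreated cells, and 52477 bp and 0 bp after LPS. H3K36me3 and Ser2P were thus called there in the shWdr82 lists alone. Total Pol II was called in both scrambled lists and in shWdr82 untreated cells, and not in shWdr82 cells with LPS.

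The next 4 of the 5 largest such domains overlapped H3K4me3. They were chr15:6496154-6555306, chr11:83400483-83433178, chr2:167553420-167611767 and chr13:5762246-5809619. At chr11:83400483-83433178 the 3 empty vector peaks of each treatment became 1 in shWdr82, and H3K4me3 was called in both empty vector lists and neither shWdr82 list. Ser2P covered 1301 bp in scrambled and 8796 bp in shWdr82 untreated cells at this domain, and 10228 bp and 23858 bp with LPS. H3K4me1 covered 28361 bp and 8146 bp untreated, and 26382 bp and 8466 bp with LPS. Acetylation covered 32212 bp in empty vector and 32641 bp in shWdr82 untreated cells, so its length was nearly that of the whole domain in both. At chr15:6496154-6555306 Ser2P went the other way, with 14272 bp in scrambled and 11169 bp in shWdr82 untreated cells, and 14607 bp and 0 bp with LPS. At chr2:167553420-167611767 it covered 9440 bp and 19019 bp untreated, and 10321 bp and 53202 bp with LPS. At chr13:5762246-5809619 it covered 0 bp in both untreated lists, and 2199 bp and 20602 bp with LPS.

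The largest domains joined in empty vector in both treatments were chr9:65371074-65421896, chr11:94534884-94559405, chr10:95785081-95806247, chr15:95620131-95639559 and chr16:21623612-21647536. The acetylated length in the first was 50322 bp in empty vector and 48362 bp in shWdr82 untreated cells, and 50823 bp and 50709 bp after LPS. In each of these 5 domains acetylation covered at least 17678 bp in every list. Ser2P covered 32082 bp in scrambled and 24929 bp in shWdr82 untreated cells in the first, and 46627 bp and 47097 bp with LPS. At chr11:94534884-94559405 it covered 567 bp and 0 bp untreated, and 1039 bp and 6950 bp with LPS. At chr16:21623612-21647536 it covered 0 bp and 3924 bp untreated, and 4081 bp and 10331 bp with LPS. The chr10 and chr15 domains had no Ser2P peak in any list.

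Acetylation and H3K4me3 did not narrow together at promoters. At 8521 untreated regions where both marks matched 1 to 1, the median log2 width ratio, shWdr82 over empty vector, was -0.22 (-0.23 to -0.22) for H3K4me3 and 0.037 (0.034 to 0.041) for H3K27ac. After LPS, over 7524 regions, it was -0.0045 (-0.0081 to -0.00064) for H3K4me3 and -0.084 (-0.089 to -0.079) for H3K27ac. The marks therefore moved in different directions in untreated cells, and after LPS the ratio of H3K27ac lay further below 0 than that of H3K4me3. Pearson's r between the 2 ratios over these regions was 0.03 untreated and 0.041 after LPS, as a description. Where H3K4me3 was over 1.5-fold narrower in shWdr82 untreated (982 regions), the median H3K27ac ratio was 0.04 (0.029 to 0.051), and 14 of the 982 also had H3K27ac over 1.5-fold narrower, beside 85 of all 8521 regions (0.998%).

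Most regions where the H3K4me3 call was missing in knockdown cells had an H3K27ac call. At 305 regions with H3K4me3 in both empty vector lists and neither shWdr82 list, H3K27ac was called at 83.9% in empty vector and 79.0% in shWdr82 untreated cells. The difference was -4.92 points (-7.81 to -2.03). With LPS, 78.7% and 77.4% were the shares, and they differed by -1.31 points (-4.03 to 1.41). At 579 regions with H3K4me3 in both shWdr82 lists and neither empty vector list, H3K27ac was called far less often. The shares were 24.5% in empty vector and 26.1% in shWdr82 untreated cells, and 23.7% in both after LPS. At 15439 regions with H3K4me3 in all 4 lists, H3K27ac was called at 72.5% and 73.2% untreated, and at 65.7% and 64.6% after LPS.

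The borders of acetylated promoters differed by side. Promoters were oriented by H3K36me3, where it covered at least 50% of the 10 kb on one side and none of the 10 kb on the other. This orientation was chosen after values were seen. In untreated cells, over 4076 promoters, the border away from H3K36me3 lay 32 bp (27 to 36) further out in shWdr82 than in empty vector cells, and the border on the H3K36me3 side 11 bp (6 to 16) further out. The median difference, far side minus H3K36me3 side, was 28.5 bp (21 to 36). After LPS, over 3555 promoters, the outward shift was -44 bp (-52 to -38) on the far side and -95 bp (-104 to -84) on the H3K36me3 side, so both borders lay further in. The difference was 52 bp (41 to 65). Relative to the far border, the border on the H3K36me3 side lay further in under both treatments, although total width went opposite ways.

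The difference between sides was above 0 on 19 of 20 chromosomes under each treatment, and at 55.4% and 56.5% of promoters. It had the same value for promoters with H3K36me3 on their right or left untreated (28.5 bp and 28.5 bp), and was 61 bp and 42 bp after LPS. At promoters with no H3K36me3 on either side, left minus right was -2.5 bp (-14 to 7, 2520 promoters) untreated and -12 bp (-35 to 5, 2129 promoters) after LPS. Left and right do not follow gene direction there. These values therefore describe a left-right bias of the lists and cannot show whether the 2 sides of those promoters differed. H3K4me3 at the promoters oriented by H3K36me3 differed between sides in the same direction as H3K27ac. The difference was 112 bp (101 to 122) untreated and 90 bp (82 to 99) after LPS, above 0 on 20 of 20 chromosomes each time. Its outward shift untreated was -77 bp on the far side and -189 bp on the H3K36me3 side.

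**Figure D4:**
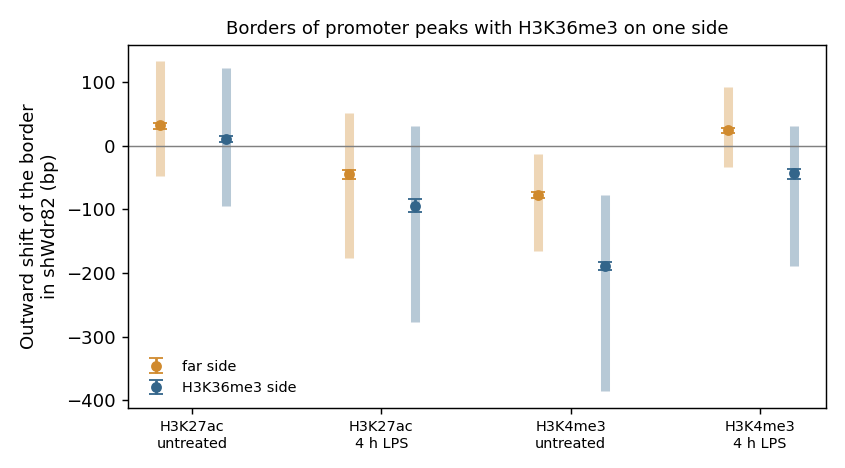
Shift of peak borders outward in shWdr82 relative to empty vector (vertical axis, bp) at promoters with H3K36me3 on one side, for H3K27ac and H3K4me3, untreated and after 4 h of LPS. Orange, side away from H3K36me3. Blue, H3K36me3 side. Points are medians with 95% intervals for counting error, pale bars the middle 50% of promoters. In each pair the blue point lies below the orange one, by as little as 11 bp against 32 bp for H3K27ac untreated.

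At distal regions acetylated in untreated cells of 1 vector alone, H3K4me1 differed in the same direction between shWdr82 and scrambled cells. H3K4me1 was measured in separate libraries, with a scrambled control and 45 min of LPS. At 1918 distal regions held by shWdr82 untreated alone, H3K4me1 was called at 65.4% in scrambled and 72.8% in shWdr82 untreated cells, a difference of 7.40 points (5.62 to 9.19). At 1342 regions held by empty vector untreated alone, it was called at 71.5% and 64.3%, a difference of -7.23 points (-9.26 to -5.19). At 2045 regions held by empty vector LPS alone the H3K4me1 difference with LPS was -2.10 points (-3.46 to -0.747), and at 1074 regions held by shWdr82 LPS alone it was 2.61 points (0.648 to 4.57). Regions held by all 4 H3K27ac lists (6630) had -1.79 points (-2.40 to -1.19) untreated and -2.50 points (-3.11 to -1.90) with LPS. The class held by empty vector LPS alone was thus near the regions held by all 4 lists, and the other 3 classes lay further from them. This depended on the comparator. At 4206 distal regions held by both LPS lists alone, H3K4me1 with LPS was called at 41.3% in scrambled and 41.7% in shWdr82 cells. The interval of that difference was -0.708 to 1.47 points. Beside these regions, the class of empty vector LPS alone lay lower, and its interval did not overlap theirs. The class of shWdr82 LPS alone lay higher, with an overlapping interval.

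Regions held by both empty vector lists alone had H3K4me1 less often in shWdr82 than in scrambled cells. At 128 distal regions held by both empty vector lists alone, H3K4me1 was called at 75% in scrambled and 64.1% in shWdr82 untreated cells. They differed by -10.9 points (-17.5 to -4.36), and with LPS the difference was -14.1 points (-21.5 to -6.64). At the 111 held by both shWdr82 lists alone it was 4.50 points (-1.81 to 10.8) untreated, an interval that includes 0. Over all 24219 distal regions, 412 (1.7%) had H3K4me1 in both scrambled lists and neither shWdr82 list, and 290 (1.2%) had the reverse. Among the 128 the first count was 9 (7.03%, 3.27 to 12.9), and among the 111 it was 0 (95% interval up to 3.27%). The reverse count among the 111 was 2 (1.80%, 0.219 to 6.36), near the 1.2% of all distal regions, and among the 128 it was 1. H3K4me1 was thus called in shWdr82 cells at most of the 128 regions as well.

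**Figure D5:**
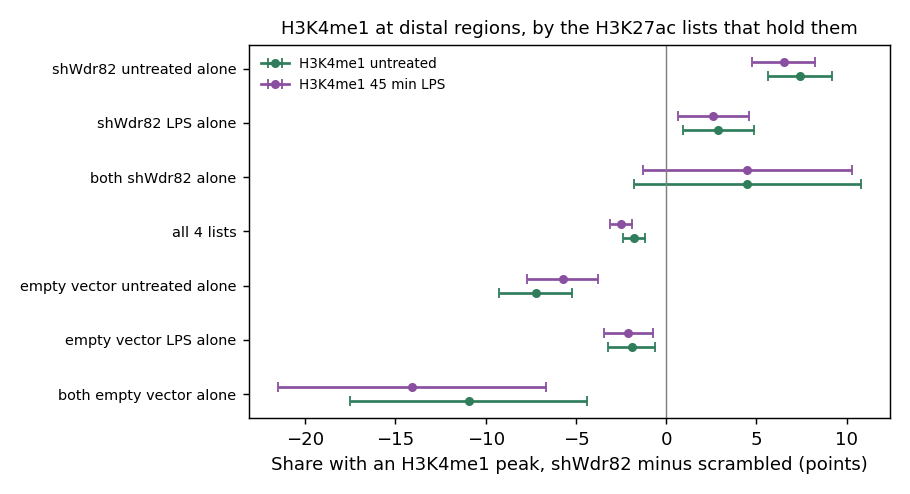
Difference in the share of distal H3K27ac regions with an H3K4me1 peak, shWdr82 minus scrambled (horizontal axis, percentage points), for regions grouped by the H3K27ac lists that hold them (vertical axis). Green, H3K4me1 untreated. Purple, H3K4me1 with 45 min of LPS. Bars are 95% intervals for paired shares. The classes held by shWdr82 lists alone lie to the right of 0, up to 7.40 points, and those held by empty vector lists alone to the left, down to -14.1 points.

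The width ratio of distal H3K27ac peaks was higher where H3K4me1 was called in shWdr82 cells alone than where it was called in scrambled cells alone. In untreated cells, distal 1-to-1 pairs with H3K4me1 in shWdr82 alone (372) had a median log2 width ratio of 0.23 (0.20 to 0.27). Those with it in scrambled cells alone (695) had 0.057 (0.031 to 0.080), a difference of 0.18. Untreated pairs without H3K4me1 in either list (769) had 0.13, and those with it in both (10424) had 0.088. After LPS, the values for shWdr82 alone and scrambled alone were -0.053 (417 pairs) and -0.15 (578 pairs), a difference of 0.099. This contrast was chosen after values were seen, with 45 min for H3K4me1 and 4 h for H3K27ac. By total Pol II the distal ratios were 0.12 (shWdr82 alone, 496 pairs) and 0.049 (scrambled alone, 985 pairs) untreated, and -0.067 and -0.098 after LPS. The total Pol II intervals overlapped after LPS. For Ser2P the ratios were 0.11 and 0.070 untreated and -0.074 and -0.11 after LPS, with intervals that overlapped under both treatments. For H3K36me3 they were 0.16 (shWdr82 alone, 388 pairs) and 0.090 (scrambled alone, 414 pairs) untreated, and after LPS the order was the opposite, -0.088 and -0.067, with overlapping intervals.

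In untreated cells the shWdr82 list covered more of the regions where elongating Pol II was called in shWdr82 cells alone. In 432 Ser2P regions present in both shWdr82 lists and absent from both scrambled lists, H3K27ac covered 19.2% of the length in empty vector and 23.6% in shWdr82 untreated cells, 22.7% more. At the 391 Ser2P regions held by both scrambled lists alone it covered 22.4% and 23.1%, and over the 4878 regions held by all 4 lists 6.17% more was covered. After LPS the first group had 18.5% and 18.3%, and in regions held by all 4 lists the covered length changed by -5.93%. The share of the 432 regions with an H3K27ac peak was 22.7% in empty vector and 26.6% in shWdr82 untreated cells. The difference was 3.94 points (1.99 to 5.88), and the share was 20.1% in both vectors after LPS. The greater cover was thus seen in untreated cells and not after LPS, and the whole list changed by 7.59% untreated and -9.84% after LPS. Beside the regions held by all 4 lists, the first group had the higher change under both treatments. It was 22.7% against 6.17% untreated, and -0.861% against -5.93% after LPS. The difference between the treatments, and that between the groups of Ser2P regions, was not tested.

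H3K36me3 regions had the same ordering in untreated cells. At 1552 H3K36me3 regions held by both shWdr82 lists alone, H3K27ac covered 8.62% of the length in empty vector and 10.8% in shWdr82 untreated cells, 25.03% more. At 942 regions held by both scrambled lists alone it covered 5.14% more, and at the 21208 held by all 4 lists 7.81% more. After LPS the changes of length were -4.26%, -10.3% and -10.9%, and those over Ser2P regions in the same order of groups were -0.861%, -8.56% and -5.93%. At 2512 H3K4me1 regions held by both shWdr82 lists alone the covered length was 44.0% greater in untreated shWdr82 cells, and at 3542 held by both scrambled lists alone it changed by -1.19%. After LPS the changes were -4.07% and -13.9%. At the 40360 H3K4me1 regions held by all 4 lists they were 6.42% untreated and -6.03% after LPS. Total Pol II regions did not have the untreated ordering of Ser2P and H3K36me3. At 371 held by both shWdr82 lists alone, 12.9% more was covered in untreated shWdr82 cells. It was 7.86% more at 484 held by both scrambled lists alone and 3.18% more at 10803 held by all 4. After LPS the total Pol II values were -3.10%, -3.35% and -5.08%.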

How the data were processed

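H3K27ac was measured by ChIP-seq in macrophages, in 4 libraries of 1 per group. The authors aligned reads with Bowtie 0.12.7 and called peaks with MACS 1.4 on mm9, per the submitters' processing notes. Each deposited list gives peak positions, set by the authors' peak calling, and a peak score from 50 to 3233.1. Its exact meaning is not given in the sources used here. Depth and input are not given either, so depth is unknown.

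Overlap means at least 1 bp. Peaks were merged over lists, classed by the H3K4me3 lists, and matched 1 to 1 where each overlapped only the other. Shares have exact (Clopper-Pearson) 95% intervals, differences of shares Wald intervals and medians order-statistic intervals. Changes of width over 1.5-fold were called. The regions named are up to 5 per vector and pattern by the lower score or smaller width, and up to 3 wider and narrower regions by the smaller log2 ratio of the 2 treatments, with chromosome 18 passed over. The regions and groups were chosen with earlier results of these data known. The H3K36me3 orientation and H3K4me1 contrast were chosen after seeing values, as was the list of empty stretches. The positions in the other 20 lists of the series were used to class and orient regions and to give the presence of the other marks. Alternatives changed the score minimum (100), the number of peaks, the covered length, the overlap, the classes and the joining distance (1000 bp). The counting of shares, widths, joins and borders was checked on simulated lists with known answers. Python 3.11.15, numpy 2.4.6, pandas 2.3.3, scipy 1.17.1 and matplotlib 3.10.9 were used.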

Additional observations from a re-analysis of the deposited data

Results flagged for a closer look

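The knockdown difference had opposite signs untreated and after LPS in 5 measures. None of these differences between treatments was tested, since each group is 1 library. The share of promoter regions held by shWdr82 alone minus that held by empty vector alone was 0.746 points untreated and -1.30 after LPS, a difference of 2.04 points. At distal regions it was 3.41 and -6.42, a difference of 9.83 points. The median log2 width ratio was 0.036 and -0.083 at promoters, a difference of 0.12, and 0.091 and -0.094 at distal peaks, a difference of 0.18. The log2 ratio of joined peaks was 1.34 and -0.70, a difference of 2.04.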

How the results depend on the processing

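Of 81 alternatives over 15 results, 57 left the value within its interval, 19 moved it and 5 reversed it. Cutting the list with more covered length to the covered length of the other reversed all 4 presence differences. Untreated they became -6.20 points (promoters) and -18.9 (distal), and after LPS 9.15 and 23.9. It also reversed the sharing of LPS-acquired peaks, to 23.5 points. That setting removes the lowest-scoring peaks of 1 list only, leaving 26484 of 31677 shWdr82 untreated peaks and 22425 of 28986 empty vector LPS peaks. With equal numbers of peaks the presence differences were 1.59 and 6.40 points untreated, and -0.759 and -4.21 after LPS. The LPS-acquired difference was then -10.3. With a score of at least 100 they were 1.34 and 4.42 untreated, and -2.27 for promoters after LPS. Joining peaks within 1000 bp gave -4.32 for distal LPS. Width ratios kept their direction throughout: the distal untreated one was 0.084 with a score of at least 100 and 0.085 with joined peaks, the promoter LPS one -0.077 with joined peaks, and the distal LPS one -0.10 at equal length. Joining ratios also kept their direction. They were 1.47 (peaks within 1000 bp joined), 2.05 (gaps of at least 500 bp) and 1.81 (equal length) untreated, and -2.26, -2.72 and -1.36 after LPS. The causes of these changes were not tested, and cutting 1 list alone at equal length tests none of them. The border and H3K4me1 contrasts kept their values within their intervals. No paired analysis was possible because each group has 1 library, and no library could be left out for the same reason. Unknown depth limits every statement on presence.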

Other observations

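Some acetylated domains were absent from 1 list alone. At chr2:116722577-116847477 H3K27ac covered 73076 bp in empty vector and 68528 bp in shWdr82 untreated cells and 116804 bp in shWdr82 LPS cells, and 0 bp in empty vector LPS cells. At chr4:132717506-132832175 it covered 23025 bp and 25170 bp untreated and 23266 bp in empty vector LPS cells, and 0 bp in shWdr82 LPS cells. These stretches were picked after their values were seen.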
